A study of Mus musculus with 12 samples.

Results

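The subject is 10 glutathione S-transferase genes, followed in RNA sequencing of mouse liver: 4 of the alpha class (Gsta1, Gsta2, Gsta3, Gsta4), 4 of the mu class (Gstm1, Gstm2, Gstm3, Gstm4), Gstp1 of the pi class and Gstt1 of the theta class. They were taken by gene symbol from the 31253 symbols that each of the 12 libraries lists, with earlier results of these data known, and all 10 passed the filter on low values. All mice were male and C57BL6. They were wild type (WT) or carried a knock-in allele, S302A, which puts an alanine in place of a serine in CUGBP1 (gene Celf1), an RNA-binding protein. Diethylnitrosamine (DEN) is a nitrosamine that liver enzymes turn into a DNA-alkylating agent. It had been injected at 3 weeks of age at 50 µg per g body weight, with liver collection 30 to 38 weeks afterwards. The study's groups were S302A knock-in mice given DEN (S302A DEN), untreated S302A knock-in mice (S302A untreated), WT mice given DEN (WT DEN) and untreated WT mice (WT untreated), with 3 libraries each. The labels name the tissue as liver, without saying whether a piece held tumour.

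Glutathione S-transferases join the tripeptide glutathione to reactive, electron-poor molecules, among them oxidised drugs, carcinogen epoxides and products of lipid peroxidation. The conjugates then leave the cell through export pumps. In liver these enzymes are abundant, and several of their genes are switched on through antioxidant response elements, short DNA motifs bound by the transcription factor NRF2 (Nfe2l2) with a small Maf partner. NRF2 is kept low by KEAP1 (Keap1), and the xenobiotic receptors PXR (Nr1i2) and CAR (Nr1i3) act on some of the same genes. In rat liver, the pi form is a classic marker of early chemically induced lesions.

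On the GRCm38 mouse genome (mm10, GENCODE M21) the genes lay in few places. Gsta1 (chr9:78230656-78242684, plus strand), Gsta2 (chr9:78331018-78355788, minus strand) and Gsta4 (chr9:78182774-78209349, plus strand) shared a stretch of chromosome 9, and Gsta3 was at chr1:21240589-21265661 on the plus strand. The mu genes stood side by side on the minus strand of chromosome 3, Gstm3 at chr3:107963696-107969283, Gstm2 at chr3:107981702-107986453, Gstm1 at chr3:108012255-108017973 and Gstm4 at chr3:108040408-108044894. Gstp1 was at chr19:4035407-4037985 and Gstt1 at chr10:75783813-75798584, both on the minus strand.

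RefSeq promoter windows on GRCm38.p6, which hold 250 bases before a start and 50 after it, were matched by symbol for 9 of the 10 genes, all but Gsta4. The starts are RefSeq's. Those of Gsta1, Gsta2, Gstm2, Gstm3, Gstm4, Gstp1 and Gstt1, and a second start of Gstm1, lie inside the genes as GENCODE places them. Gsta1 and Gsta2 are shown first, because their upstream DNA is alike and their levels are hard to keep apart. The sequences end where a GENCODE exon of the gene begins. Over 248 aligned columns they were identical at 175, or 70.6%, and capitals mark their longest shared run, 29 bases. Gsta1 is chr9:78230419-78230655 on the plus strand and Gsta2 is chr9:78347169-78347395 on the minus strand.
Gsta1: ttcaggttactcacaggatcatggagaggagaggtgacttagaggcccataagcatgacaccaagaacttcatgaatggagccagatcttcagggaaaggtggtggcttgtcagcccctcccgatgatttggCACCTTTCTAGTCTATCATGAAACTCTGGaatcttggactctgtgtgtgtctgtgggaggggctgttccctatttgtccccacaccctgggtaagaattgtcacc
Gsta2: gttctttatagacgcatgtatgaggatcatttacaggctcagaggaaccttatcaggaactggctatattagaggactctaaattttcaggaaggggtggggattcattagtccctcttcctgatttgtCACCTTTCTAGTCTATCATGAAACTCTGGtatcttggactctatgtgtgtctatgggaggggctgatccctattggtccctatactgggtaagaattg

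The windows were searched on both strands for a core of the antioxidant response element, TGACNNNGC, and for TGANTCA, a motif bound by AP-1 proteins. The first was found in 12.4% and the second in 7.81% of 32851 RefSeq promoter windows of 300 bases. Among the 9 genes, Gsta3 alone held the first, as TGACATTGC (in capitals), starting 121 bases before its start, in chr1:21240335-21240584 on the plus strand. Gstp1 alone held the second, as TGAGTCA (in capitals), starting 74 bases before its RefSeq start. All but the first base of this match lie within an exon that GENCODE gives to Gstp1. The 30 bases around it (chr19:4037968-4037997, minus strand) are printed with the same stretch of its neighbour Gstp2 (chr19:4042292-4042321, minus strand), to show that the 2 genes carry the same letters there. A match describes letters and is not a measured binding site, and the absence of these letters from a window of 300 bases says nothing of sites elsewhere.
Gsta3: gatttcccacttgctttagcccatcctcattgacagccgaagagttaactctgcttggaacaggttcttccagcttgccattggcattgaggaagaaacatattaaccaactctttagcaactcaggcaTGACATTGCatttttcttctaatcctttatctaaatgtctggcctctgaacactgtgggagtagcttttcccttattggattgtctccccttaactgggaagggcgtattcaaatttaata
Gstp1: ctccaacgtgtTGAGTCAgcatccggggcg
Gstp2: ctccaacgtgtTGAGTCAgcatccggggcg

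Values are TPM, a relative transcript abundance that is scaled by transcript length, so levels can be compared between genes. TPM keeps no depth, so the counting error behind each value is unknown. No value lies below 1, and a value of 1 may stand for anything up to 1. Reads from near-identical copies cannot always be told apart. Of the distinct stretches of 31 bases in its GENCODE transcripts, Gsta1 shared 92.9% with other genes (80.3% with Gm3776), Gsta2 60.7% (44.7% with Gsta1), Gstp1 38.5% (all with Gstp2), Gstm3 37.7%, Gstm1 28.8% and Gstm2 12.2%. The values of these genes, above all of Gsta1, are therefore uncertain one by one. Gstm4 shared 3.31%, Gsta3 2.75%, Gstt1 0.468% and Gsta4 0%. All 15 hepatocyte markers looked up were found, with summed levels of 83486 to 153407 TPM over the 12 libraries. The library S302A DEN replicate 3 stood apart: it had 13083 symbols above 1 TPM, against 10839 to 11653 in the other 11 libraries. The median-of-ratios scaling gave it a factor of 1.69, with 0.82 to 1.18 elsewhere, and 70.8% of the 12120 tested genes were highest in it. It is therefore described first on its own, as 1 library with no replicate.

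In S302A DEN replicate 3, 7 of the 10 transferases were at least 4-fold above the highest of the other 11 libraries, a height that 314 of 12120 tested genes reached (2.59%). The 7 were Gsta1, Gsta2 and Gsta4 and the 4 mu genes. Their folds over the highest other library were 61.8 for Gsta1, 34.2 for Gstm3, 14.2 for Gsta2, 9.58 for Gstm4, 9.04 for Gsta4, 7.89 for Gstm2 and 7.12 for Gstm1. Gsta3 was the highest of the 12 libraries by only 1.11-fold. Gstt1 ranked 4 of 12 from the top, and Gstp1, the most abundant transferase of the other S302A DEN livers, ranked 9 of 12, at 0.459 of the highest. Each gene's values are given library by library in the paragraphs that follow. The 10 genes together made up 4.07% of all TPM in this library, against 0.550% to 0.856% in the other 11.

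**Figure D1:**
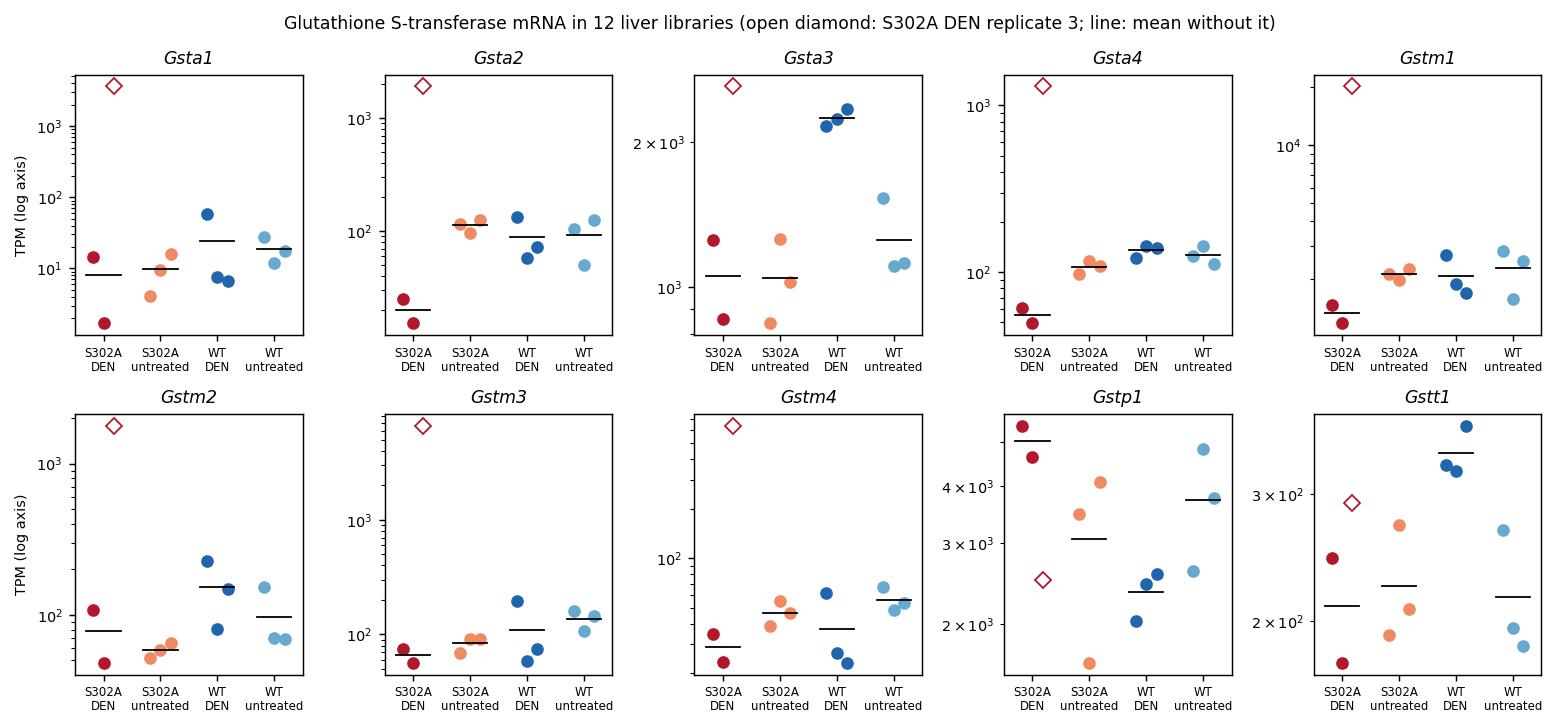
TPM of each transferase on log axes, 1 panel a gene, with the groups S302A DEN, S302A untreated, WT DEN and WT untreated from left to right. Points are libraries, the open diamond is S302A DEN replicate 3 and lines are group means without it. The diamond is the highest point for 8 genes, all but Gstp1 and Gstt1, beside 70.8% of all tested genes.

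Genes around the transferases were also high in that library, and the share differed between lists. At least 4-fold above the highest other library were 9 of 16 tested NRF2 targets outside the glutathione system, among them Nqo1 (quinone reductase) at 239 against at most 13.7 TPM, and 5 of 14 genes of glutathione synthesis and recycling. These 5 were Slc7a11 (the cystine importer that feeds glutathione synthesis), at 132 against at most 1.97 TPM, Gclc and Gclm (the 2 subunits of the first enzyme of glutathione synthesis), Gss (glutathione synthase) and Gsr (glutathione reductase). Of 12 tested transferases outside the 10, only microsomal Mgst3 passed 4-fold. None of 17 tested regulators did. The filter on low values keeps out genes that rise above the floor in fewer than 3 libraries, and 5 genes of these lists that it kept out were also at least 4-fold above the highest other library. Gpx2 was at 372 TPM, Abcc4 at 215 TPM, Cbr3 at 188 TPM, Ggt1 at 79.0 TPM and Abcc1 at 10.1 TPM, with all other libraries at or near the floor of 1. Nfe2l2 was at 82.2 TPM, against at most 62.4 TPM elsewhere, and Keap1 at 35.8 TPM, against at most 18.1 TPM.

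Markers of other cells and of tumours differed in the same library. Of 7 tested liver tumour markers 6 passed 4-fold (2.59% of all tested genes), and the list of 11 summed to 912 TPM, against 11.4 to 64.6 TPM in the other libraries. Afp, the fetal liver protein, was at 37.7 TPM, against at most 8.64 TPM, and Ly6d at 422 TPM, against at most 8.65 TPM. Tff3 was at 264 TPM, and at 36.5 and 46.6 TPM in S302A DEN replicates 1 and 2. Ly6d and Tff3 made most of the sum. H19 and Igf2, also on the list, were at the floor of 1 in all 12 libraries. The proliferation genes Mki67 and Top2a were at 5.11 and 7.24 TPM in this library and at the floor of 1 in the other 11, so that the filter on low values kept them out of the tested genes. Macrophage markers summed to 826 TPM, against 115 to 297 TPM, stellate cell markers to 249 TPM, against 37.0 to 91.5 TPM, and cholangiocyte markers to 156 TPM, against 24.6 to 75.6 TPM. Gene by gene, 3 of 12 macrophage, 4 of 10 stellate and 0 of 3 tested cholangiocyte markers passed 4-fold. The macrophage markers Clec4f and Marco were not highest in this library, at 0.816 and 0.533 of the highest other library. The cholangiocyte keratin Krt19 was at 1.93 TPM there and at the floor of 1 in all other libraries. None of 15 hepatocyte markers passed 4-fold, beside 2.59% of all tested genes. In this library 6 of them were the lowest of the 12, beside 271 of all 12120 tested genes. Of 10 pericentral hepatocyte markers 3 passed 4-fold and 3 were the lowest. The 3 that passed were Cyp1a2, at 3492 TPM against at most 561 TPM, Rhbg and Axin2. Pericentral markers summed to 7021 TPM, against 4149 to 7217 TPM in the other libraries. The part of these cells in the transferase levels was not tested, and in bulk tissue fewer cells of a type and less RNA per cell cannot be told apart.

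**Figure D2:**
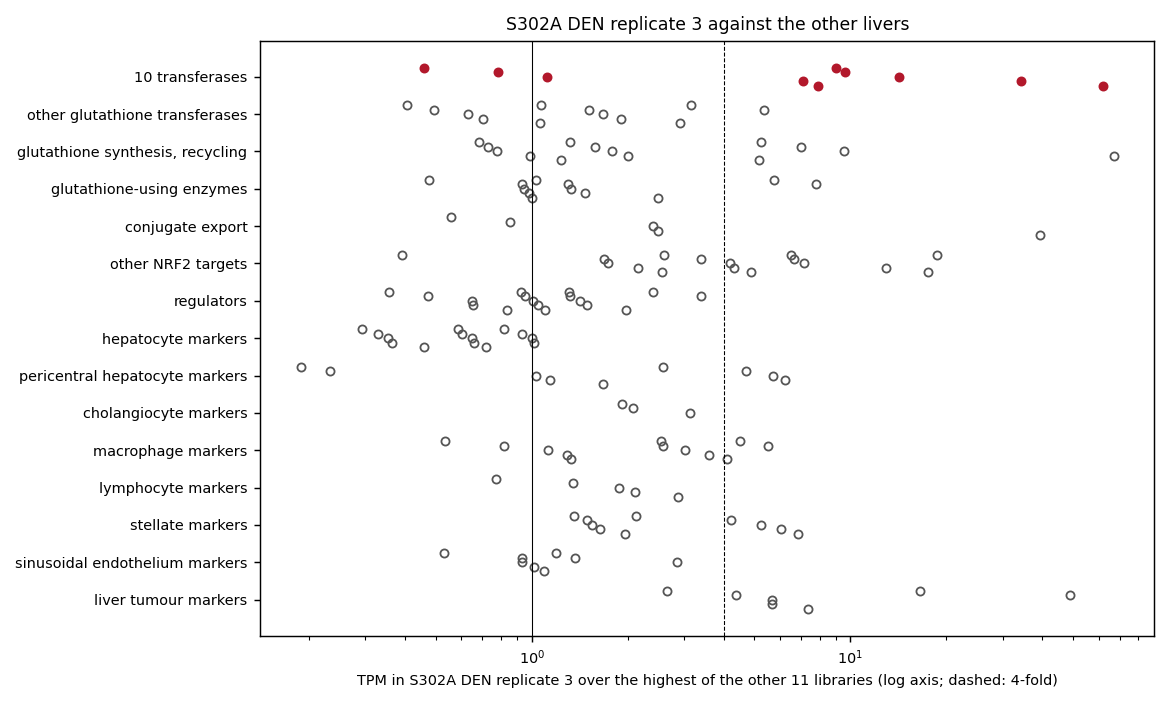
Level in S302A DEN replicate 3 divided by the highest level in the other 11 libraries, on a log axis, for each tested gene of 15 lists. The solid line marks equality and the dashed line 4-fold. Of the transferases (filled) 7 lie beyond the dashed line, of the hepatocyte markers none and of the pericentral hepatocyte markers 3.

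Group differences were then tested with limma on log2(TPM + 1), all groups in 1 fit, with Benjamini-Hochberg adjustment over all tested genes and a threshold of 0.05. The fit was made with all 12 libraries (12120 genes) and again with 11, leaving out S302A DEN replicate 3 (11883 genes). The labels do not say whether libraries come from separate animals, so p-values reflect the spread among these libraries alone, which may be technical. With 12 libraries none of the 10 transferases passed in any comparison. Among all tested genes, 0.619% passed for DEN in S302A mice, 0.132% for DEN in WT mice, 0.38% for S302A against WT after DEN, 0.033% for S302A against WT in untreated liver and 0.0413% for the difference between the 2 DEN effects. For DEN averaged over genotypes it was 1.34%, and for S302A averaged over treatments 0.0165%. At an unadjusted p under 0.05 there were 2 transferases for DEN in WT, 1 for S302A after DEN, 2 for DEN averaged and 0 in the other comparisons. Of all 12120 genes there were 1001, 949 and 2353 in the same order, and 179 to 1985 in the other comparisons. The high library entered every comparison of the S302A DEN group, and all groups shared 1 estimate of spread for each gene. In every comparison of 2 groups, also those without this library, standard errors of alpha and mu genes reached 1.90 (log2, Gsta1). For the difference between the 2 DEN effects that of Gsta1 was 2.68. The values that follow therefore come from the fit of 11 libraries, with 2 in the S302A DEN group.

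After DEN, 3 of the 4 alpha genes, Gsta2, Gsta3 and Gsta4, fell in S302A livers without replicate 3 against WT livers, and no other of the 10 transferases passed. Among all tested genes 5.89% passed in this comparison, and 5.3% passed as lower. Of its 700 calls, 630 (90%) were lower, and the median over all genes was -0.20 (log2), against a median of -0.83 over the 10 transferases, 9 of which had values below 0. After rescaling by median of ratios the median of all genes was 0.02 and 257 of 425 calls (60.5%) were lower, and the same 3 transferases were called.

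Gsta4, which acts on hydroxyalkenals from lipid peroxidation, had 61.0 and 49.2 TPM in S302A DEN replicates 1 and 2, and 1300.2 TPM in replicate 3. It had 97.9, 116 and 109 TPM in S302A untreated livers, 122, 143 and 139 TPM in WT DEN livers and 124, 144 and 112 TPM in WT untreated livers. Replicates 1 and 2 lay below all other libraries and replicate 3 above them all. Without replicate 3 the log2 difference between S302A DEN and WT DEN was -1.28 ± 0.15 (SE, adjusted p = 0.0023), and that between S302A DEN and S302A untreated -0.96 ± 0.15 (adjusted p = 0.013). With replicate 3 these were 0.24 ± 0.88 (adjusted p = 0.99) and 0.56 ± 0.88 (adjusted p = 0.72). Its sequence shared no stretch of 31 bases with another gene.

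Gsta2, an inducible alpha form, had 24.9 and 15.2 TPM in S302A DEN replicates 1 and 2, and 1905 TPM in replicate 3. It had 116, 95.9 and 126 TPM in S302A untreated livers, 134, 57.7 and 71.9 TPM in WT DEN livers and 104, 49.6 and 124 TPM in WT untreated livers. Replicates 1 and 2 were again the lowest of the 12 libraries. Without replicate 3, Gsta2 fell in S302A DEN livers by 2.02 ± 0.41 (log2, SE) against WT DEN livers (adjusted p = 0.021) and by 2.46 ± 0.41 against S302A untreated livers (adjusted p = 0.016). Leaving out S302A DEN replicate 2 as well, which leaves 1 library in that group, ended these calls (adjusted p = 0.23 and 0.12), as it did those of Gsta3 after DEN (adjusted p = 0.24) and of Gsta4 for DEN in S302A (adjusted p = 0.10). The call of Gsta4 after DEN held without any further library, with adjusted p from 0.0012 to 0.034 over the alternatives tried. Without WT DEN replicate 2 the adjusted p of Gsta3 was 0.054, and without WT DEN replicate 3 it was 0.070 for Gsta3 and 0.056 for Gsta2. Without S302A untreated replicate 1, the adjusted p of Gsta2 for DEN in S302A was 0.055.

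Gsta1, which shares most of its sequence, had 14.3 and 1.69 TPM in S302A DEN replicates 1 and 2, and 3612 TPM in replicate 3. It had 4.07, 9.62 and 15.8 TPM in S302A untreated livers, 58.5, 7.67 and 6.63 TPM in WT DEN livers and 27.5, 11.8 and 17.6 TPM in WT untreated livers. The 4 groups overlapped, and Gsta1 passed in none of the comparisons. Because reads may be exchanged between Gsta1 and Gsta2, their sum was also taken: 39.2, 16.9 and 5518 TPM in the S302A DEN replicates 1 to 3, 120, 105 and 142 TPM in S302A untreated livers, 193, 65.3 and 78.5 TPM in WT DEN livers and 131, 61.4 and 142 TPM in WT untreated livers. In the sum, too, S302A DEN replicates 1 and 2 were the lowest of the 12 libraries. Most of the sum in these 2 libraries is Gsta2. The sum leaves out Gm3776, with which Gsta1 shares 80.3% of its stretches, so it cannot show how reads were divided.

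Gsta3, known in mice for detoxifying the epoxide of aflatoxin, was the most abundant alpha gene in all libraries but S302A DEN replicate 3. It had 1252 and 858 TPM in S302A DEN replicates 1 and 2, and 2607 TPM in replicate 3. It had 841, 1259 and 1027 TPM in S302A untreated livers, 2162, 2229.8 and 2339.9 TPM in WT DEN livers and 1529, 1107 and 1122 TPM in WT untreated livers. WT DEN livers lay above all other libraries except that replicate 3. Without it, Gsta3 fell by 1.11 ± 0.22 (log2, SE) in S302A DEN against WT DEN livers (adjusted p = 0.020). In WT livers, DEN against untreated gave 0.86 ± 0.20 (adjusted p = 0.054), which did not pass, while in S302A livers it gave 0.01 ± 0.22 (adjusted p = 1.0). The difference between these 2 DEN effects did not pass either (-0.85 ± 0.30, adjusted p = 0.22).

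**Figure D3:**
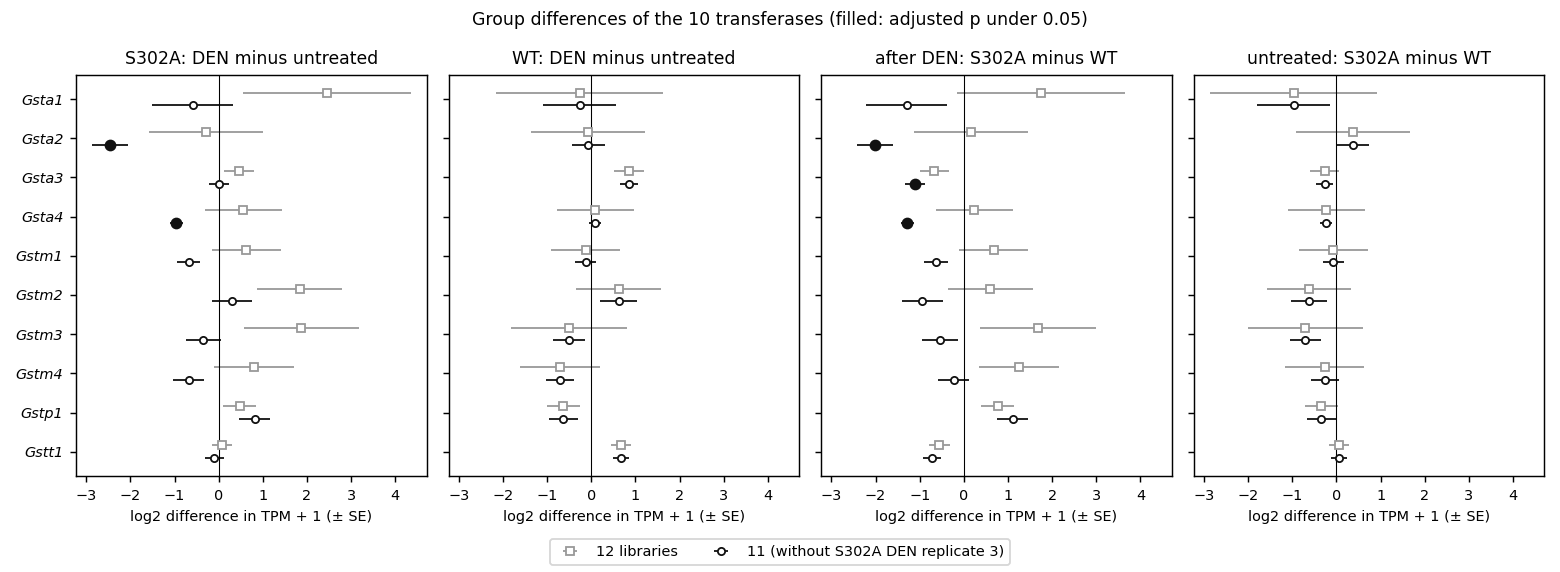
Log2 difference in TPM + 1 for each transferase in 4 comparisons, with standard errors, from the fit of 12 libraries (grey squares) and of 11 without S302A DEN replicate 3 (black circles). Filled symbols have an adjusted p under 0.05. All filled symbols are alpha genes from the fit of 11 libraries, Gsta2 and Gsta4 on the left and Gsta2, Gsta3 and Gsta4 for S302A against WT after DEN.

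For DEN in S302A livers without replicate 3, Gsta2 and Gsta4 were the 2 of 10 transferases called, both lower, where 2.43% of all tested genes passed and 1.21% passed as lower. The median log2 difference was -0.47 over the 10 transferases and 0 over all genes. For DEN in WT livers none passed, where 2.17% of all genes passed. At an unadjusted p under 0.05 there were 3 of the 10, beside 2592 of all 11883 tested genes. In untreated livers none passed for S302A against WT, where 0.0337% of all genes passed. None had an unadjusted p under 0.05, beside 494 of all 11883 genes. In the test of whether DEN acted differently in the 2 genotypes, 0.631% of all genes passed and 1 of the 10 transferases did, Gsta4 (-1.05 ± 0.20, adjusted p = 0.04965). That call was lost under median-of-ratios scaling (adjusted p = 0.12), with no filter on low values (adjusted p = 0.052), with a replicate block (adjusted p = 0.074), and when any 1 of the 11 libraries was left out (adjusted p from 0.052 to 0.24). For DEN averaged over genotypes Gsta2 (-1.26, adjusted p = 0.028) and Gsta4 (-0.43, adjusted p = 0.035) passed as lower, beside 5.55% of all genes. Leaving out 1 further library ended the call of Gsta2 in 7 of 11 cases, namely S302A DEN replicate 1 or 2, S302A untreated replicate 1 or 3, WT DEN replicate 2 or 3 and WT untreated replicate 3 (adjusted p from 0.056 to 0.076). It ended that of Gsta4 in 9 of 11 cases, all but WT untreated replicates 1 and 3 (adjusted p from 0.053 to 0.089). For S302A averaged over treatments Gsta4 passed (-0.75, adjusted p = 0.017), beside 0.799% of all genes, but not under median-of-ratios scaling (adjusted p = 0.080) or without S302A DEN replicate 2 (adjusted p = 0.071). These comparisons share libraries and are not independent of each other.

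The mu genes showed no call in any comparison, with or without replicate 3. Gstm1, the main mu form of the liver, had 1480.5 and 1183 TPM in S302A DEN replicates 1 and 2, and 20093 TPM in replicate 3. It had 2122, 1996 and 2256 TPM in S302A untreated livers, 2677, 1894 and 1692 TPM in WT DEN livers and 2823, 1576 and 2491 TPM in WT untreated livers. Replicates 1 and 2 were the lowest of the 12 libraries, but the log2 difference without replicate 3 did not pass, at -0.63 ± 0.26 against WT DEN livers (adjusted p = 0.18) and -0.68 ± 0.26 against S302A untreated livers (adjusted p = 0.21).

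Gstm3 had 75.0, 56.7 and 6641 TPM in S302A DEN replicates 1 to 3, against 68.5, 92.1 and 91.3 TPM in S302A untreated livers. It had 194, 59.2 and 75.1 TPM in WT DEN livers and 159, 108 and 146 TPM in WT untreated livers. Without replicate 3 its DEN and untreated values overlapped in both genotypes, and untreated S302A livers lay below untreated WT livers (-0.70 ± 0.36, adjusted p = 1.0). In replicate 3 Gstm3 was the second most abundant of the 10 genes, after Gstm1.

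Gstm2 had 108, 48.3 and 1782 TPM in S302A DEN replicates 1 to 3, 52.0, 59.0 and 65.6 TPM in S302A untreated livers, 226, 80.8 and 149 TPM in WT DEN livers and 153, 70.1 and 69.3 TPM in WT untreated livers. Gstm4 had 34.8, 23.3 and 639 TPM in S302A DEN replicates 1 to 3, 38.6, 55.0 and 46.4 TPM in S302A untreated livers, 61.3, 26.5 and 23.2 TPM in WT DEN livers and 66.7, 48.4 and 53.3 TPM in WT untreated livers. For Gstm2, WT DEN replicate 1 and WT untreated replicate 1 stood above the other libraries of their groups, and all untreated S302A livers lay below all untreated WT livers (-0.62 ± 0.41, adjusted p = 1.0), and for Gstm4 and Gstm3 WT DEN replicate 1 did.

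Gstp1, the pi form and the most abundant of the 10 genes in 8 of the 12 libraries, had 5421 and 4639 TPM in S302A DEN replicates 1 and 2, and 2489.6 TPM in replicate 3. It had 3475, 1645 and 4074 TPM in S302A untreated livers, 2029, 2438 and 2572 TPM in WT DEN livers and 2609, 4817 and 3768 TPM in WT untreated livers. Replicates 1 and 2 of S302A DEN lay above all S302A untreated livers, and all WT DEN livers lay below all WT untreated livers. Neither difference passed without replicate 3 (0.81 ± 0.36, adjusted p = 0.28, in S302A and -0.63 ± 0.32, adjusted p = 0.29, in WT), nor did the difference between them (1.44 ± 0.49, adjusted p = 0.20). After DEN, S302A against WT gave 1.10 ± 0.36 (adjusted p = 0.096). Its near copy Gstp2 had lower levels, 266, 211 and 285 TPM in S302A DEN replicates 1 to 3 and 69.6, 92.0 and 87.4 TPM in WT DEN livers (1.51 ± 0.45 without replicate 3, adjusted p = 0.074).

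Gstt1, the theta form that acts on small halogenated molecules, had 244, 175 and 292 TPM in S302A DEN replicates 1 to 3, 192, 272 and 208 TPM in S302A untreated livers, 329.6, 323 and 373 TPM in WT DEN livers and 268, 196 and 185 TPM in WT untreated livers. WT DEN livers were the 3 highest of the 12 libraries. Without replicate 3 the difference was -0.72 ± 0.21 for S302A against WT after DEN (adjusted p = 0.070) and 0.68 ± 0.19 for DEN in WT (adjusted p = 0.079), and neither passed. Of all pairs of the 10 genes, Gstt1 and Gsta3 had the most alike profiles, with a root mean square difference of 0.28 (log2, each profile centred on its mean) over the 12 libraries and 0.21 over 11.

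Summed by class and without replicate 3, S302A DEN livers had the highest share of the pi form and WT DEN livers the highest alpha sums. Alpha transferases summed to 1352 and 924 TPM in S302A DEN replicates 1 and 2, 1273 ± 211 TPM in S302A untreated, 2491 ± 60.6 TPM in WT DEN and 1491 ± 256 TPM in WT untreated livers (SD, n = 3). Mu transferases summed to 1698 and 1311 TPM in those 2 libraries, and to 2314 ± 132, 2386 ± 672 and 2588 ± 715 TPM in S302A untreated, WT DEN and WT untreated livers (SD, n = 3). The pi form made up 62.2% and 65.8% of the members' TPM in S302A DEN replicates 1 and 2 and 6.02% in replicate 3, against 25.4% to 34.6% in WT DEN livers and 29.4% to 59.3% in untreated livers of both genotypes. All 10 genes summed to 8716 and 7050.4 TPM in S302A DEN replicates 1 and 2 and to 5600.1 to 8128 TPM in the 9 other livers, so that without replicate 3 the totals overlapped while the pi shares did not. These sums were not tested.

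**Figure D4:**
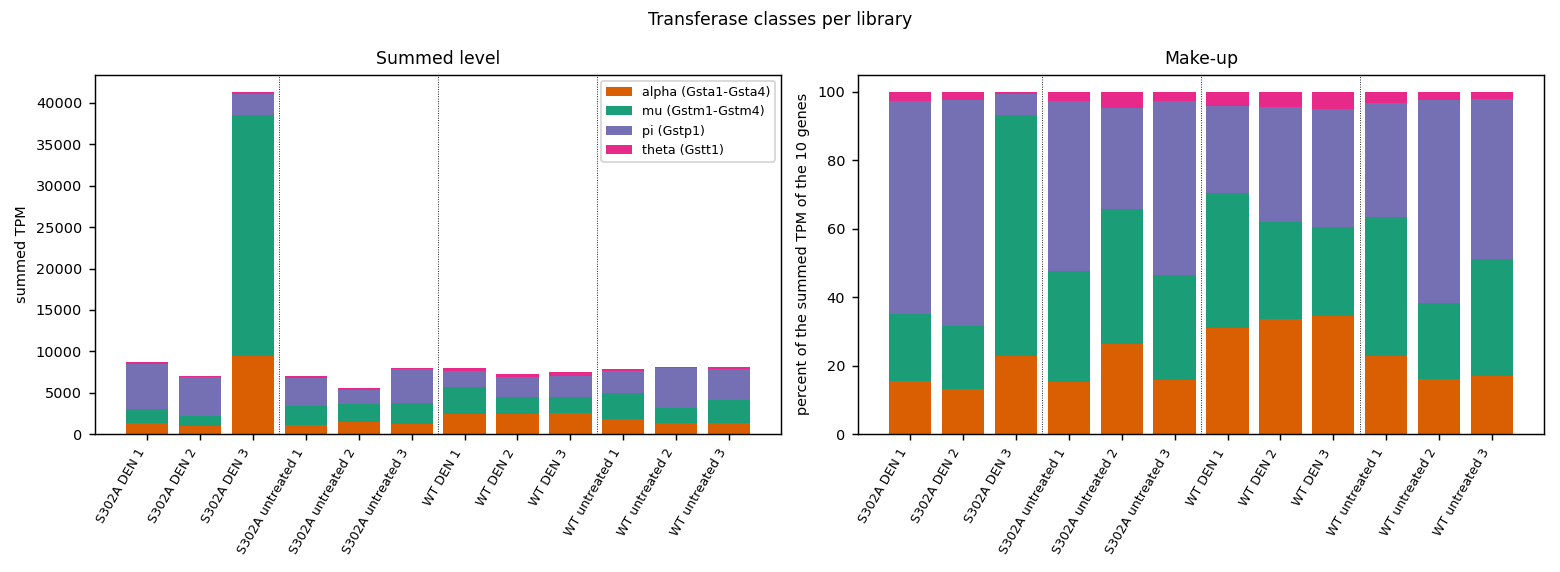
Summed TPM of the transferase classes in each library (left, axis from 0) and the share of each class in percent (right), with S302A DEN, S302A untreated, WT DEN and WT untreated from left to right. S302A DEN replicate 3 reaches 41361 TPM, of which the mu class makes 70.5%, while the other libraries stay at or below 8716 TPM.

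Genes with which the transferases work were read in the same fit of 11 libraries, for S302A against WT after DEN. Of 12 tested transferases outside the 10, 3 fell: Gstt3 (-1.68), Mgst3 (-1.54) and Gstz1, the maleylacetoacetate isomerase of tyrosine breakdown (-0.77). Of 14 genes of glutathione synthesis and recycling, 3 fell: Gclc (-1.23), Chac2, which breaks glutathione down (-0.78), and Oplah, which recycles oxoproline (-0.73). Of 12 enzymes that use glutathione, 2 fell, Prdx6 (-0.90) and Glrx5 (-0.83). Of 5 export pumps, 3 fell: Abcc3, which sends conjugates toward the blood (-1.67), Abcc2, which sends them into bile (-0.78), and Abcg2 (-0.69). Of 16 NRF2 targets outside the system, 3 fell: Nqo1 (-1.51), Cbr1, a carbonyl reductase (-1.09), and Ephx1, an epoxide hydrolase (-0.95). Of 17 regulators, 4 fell: Nr1i3 (-2.11), Nr1i2 (-1.10), Nfe2l2 (-1.09) and Mafg (-1.07). All these are log2 differences with adjusted p from 0.0015 to 0.038, and no gene of these lists rose. Among all tested genes 5.3% passed as lower in this comparison. Of its 700 calls only 70 were higher and 90% were lower, and after median-of-ratios scaling 60.5% of calls were lower. List medians were -0.60, -0.25, -0.45, -0.77, -0.35 and -0.29 in that order, beside -0.20 for all genes. Keap1 was at -0.28 ± 0.20 (adjusted p = 0.42).

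The receptor gene Nr1i3 had 45.4, 60.6 and 106 TPM in S302A DEN replicates 1 to 3, 59.2, 130.2 and 101 TPM in S302A untreated livers, 182, 223 and 298 TPM in WT DEN livers and 143, 76.2 and 110.1 TPM in WT untreated livers. WT DEN livers were the 3 highest, and the 3 S302A DEN livers overlapped the untreated ones. Nfe2l2 had 23.3, 22.8 and 82.2 TPM in S302A DEN replicates 1 to 3, 41.7, 36.5 and 39.3 TPM in S302A untreated livers, 62.4, 44.5 and 45.5 TPM in WT DEN livers and 56.4, 29.1 and 36.3 TPM in WT untreated livers. As with Gsta4, replicates 1 and 2 of S302A DEN were the lowest and replicate 3 the highest of the 12.

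For DEN in S302A livers without replicate 3, 4 genes of the 6 lists passed, beside 2.43% of all tested genes. Abcc3 fell by 1.97 (adjusted p = 0.00083), Gstt2 by 1.76 (adjusted p = 0.019), Gclc by 1.19 (adjusted p = 0.013) and Abcc2 by 0.67 (adjusted p = 0.040), and no gene of the 6 lists rose. Abcc3 had 16.4, 12.8 and 151 TPM in S302A DEN replicates 1 to 3, against 63.1, 55.6 and 60.3 TPM in S302A untreated livers. Gclc had 62.8, 45.8 and 1448 TPM in S302A DEN replicates 1 to 3, against 140.1, 124 and 109 TPM in S302A untreated livers. Nfe2l2 (-0.74, adjusted p = 0.14), Nr1i3 (-0.80, adjusted p = 0.26), Nr1i2 (-0.23, adjusted p = 0.68) and Keap1 (0.10, adjusted p = 0.86) did not pass. Abcc3 (-1.85, adjusted p = 0.0087) and Gclc (-1.50, adjusted p = 0.031) also passed the test of a difference between the DEN effects of the genotypes. For DEN in WT and for S302A in untreated liver, none of these 6 lists held a called gene.

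**Figure D5:**
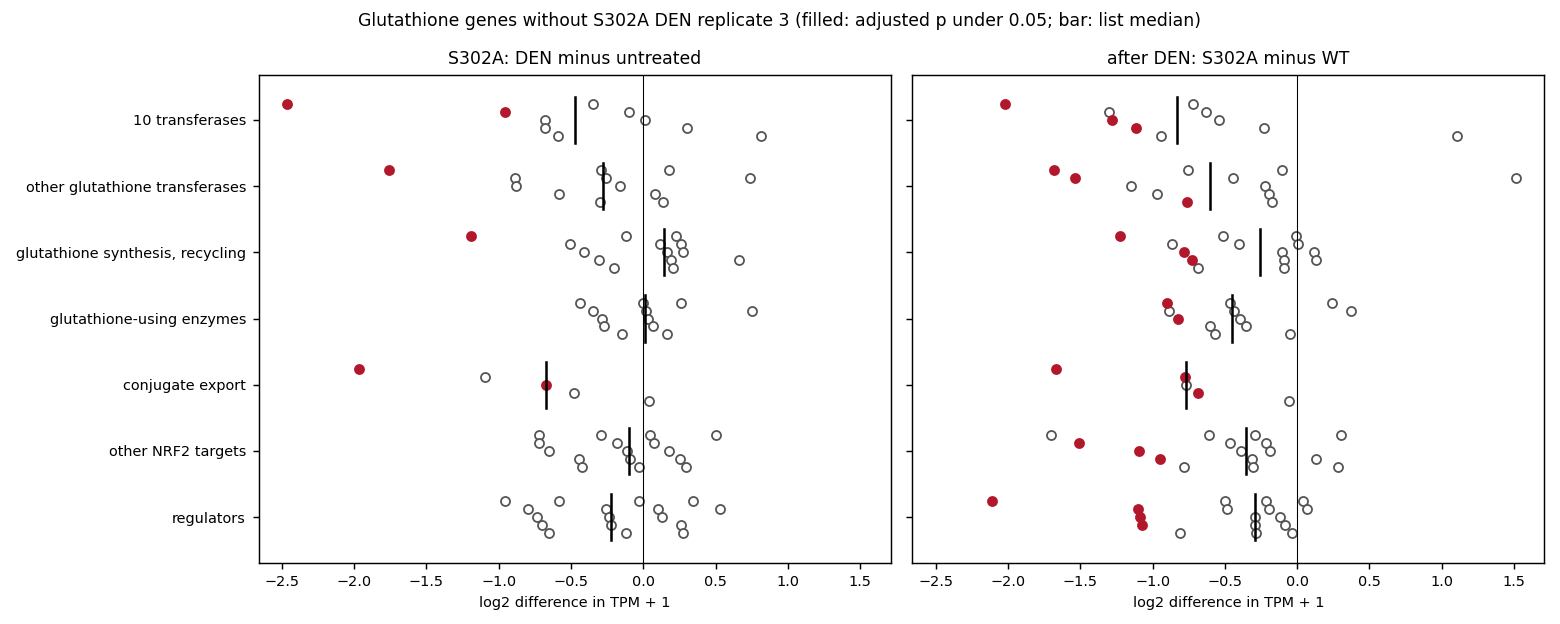
Log2 difference in TPM + 1 for each tested gene of 7 lists, from the fit of 11 libraries, for DEN in S302A livers (left) and for S302A against WT after DEN (right). Filled points have an adjusted p under 0.05 and bars are list medians. All filled points lie below 0, and Gsta2, Abcc3 and Gstt2 lie farthest to the left for DEN in S302A livers. Of the calls among all tested genes, 49.8% were lower on the left and 90% on the right.

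Markers of cell types differed beside these values. In S302A DEN livers without replicate 3, cholangiocyte markers summed to 69.6 and 75.6 TPM, against 29.4 to 38.6 TPM in WT DEN and 24.6 to 43.6 TPM in untreated livers. Most of this was Spp1, an extracellular matrix protein, which had 59.0 and 55.3 TPM there, against 13.7 to 32.1 TPM in the S302A untreated, WT DEN and WT untreated livers, while Krt19 and Epcam were at the floor of 1 in all of these libraries. Sox9, a transcription factor of bile duct cells, had 4.24 and 2.35 TPM there, against 1 to 1.68 TPM. Of 3 tested cholangiocyte markers, Sox9 and Spp1 rose for DEN in S302A (adjusted p = 0.039 and 0.0079) and for S302A after DEN (adjusted p = 0.038 and 0.014). Of all 11883 tested genes, 145 passed as higher in the first of these comparisons and 70 in the second. Hepatocyte markers summed to 110172 and 111131 TPM in S302A DEN replicates 1 and 2 and to 136638 to 153407 TPM in WT DEN livers. In untreated livers they summed to 91969 to 104433 TPM (S302A) and 83486 to 119169 TPM (WT). Of 15 hepatocyte markers, Fgb alone was called for DEN in S302A, as higher, and none was called for S302A after DEN. Pericentral hepatocyte markers summed to 4149 and 4579 TPM in S302A DEN replicates 1 and 2, against 5215 to 7217 TPM in WT DEN livers. Untreated livers had 5502 to 6212 TPM (S302A) and 5048 to 7059 TPM (WT). Most of this sum in S302A DEN replicates 1 and 2 was Cyp2e1, also on the hepatocyte list, at 3045 and 3555 TPM. Of the 10 pericentral markers, 5 were higher and 5 lower for DEN in S302A, and only Tbx3 was called, as higher. For S302A after DEN 3 were higher and 7 lower, with Tbx3 called higher and Slc1a2 lower, where 5.3% of all tested genes passed as lower. Sinusoidal endothelial markers summed to 48.5 and 73.7 TPM in S302A DEN replicates 1 and 2, against 85.0 to 119.8 TPM in WT DEN livers. Untreated livers had 61.9 to 105 TPM (S302A) and 65.1 to 82.5 TPM (WT). The part of these markers in the transferase differences was not tested.

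The genes of most alike pattern were sought for the 3 transferases that varied most over the 12 libraries, among 7347 genes with a mean of at least 5 TPM. For Gsta1 (SD 2.63 on the log2 scale) these were Gm3776, Maoa and Nqo1, with root mean square differences of 0.47, 1.07 and 1.10 (log2). For Gstm3 (SD 1.85) they were Maoa, Slc7a11 and Nqo1, at 0.42, 0.43 and 0.50. For Gsta2 (SD 1.68) they were Cyp2a5, Gclc and Rtn4, at 0.60, 0.63 and 0.66. Gsta1 shares most of its sequence stretches with Gm3776. Without replicate 3 the SD of Gsta1 was 1.21, of Gstm3 0.59 and of Gsta2 1.01, so that this library made a large part of the profiles.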

How the data were processed

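Total liver RNA of 12 mouse samples was isolated with RNeasy Plus Mini columns, made into TruSeq libraries and read on a HiSeq instrument, per the labels' protocols. The authors deposited TPM per gene symbol, made with kallisto on mm10 per the submitters' processing notes, and the version and annotation are not given in the sources used here. The TPM values have a floor of 1. Groups follow the labels. For the age at collection 1 label gives 33 to 41 weeks and another 30 to 38 weeks, which were read as weeks from birth and from treatment.

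Genes with TPM above 1 in at least 3 libraries were tested as log2(TPM + 1) with limma 3.58.1 in R 4.3.3, 1 linear model of the groups with a mean-variance trend, two-sided, Benjamini-Hochberg adjusted over all tested genes at 0.05. It had 8 residual degrees of freedom with 12 libraries and 7 with 11. The limma code was tested on simulated data. Levels carry group means with SD, and no 2 of the 66 library pairs were identical. Sequence work used Python 3.11.15 and Biopython 1.88, and stretches of 31 bases are a choice made here.

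The genes followed and the gene lists were chosen with earlier results of these data known. Named were all 10 transferases, and of each list up to 4 genes with the smallest p for DEN in S302A, those called in any comparison, and Nfe2l2, Keap1, Nr1i2 and Nr1i3. For the description of S302A DEN replicate 3, genes at least 4-fold above all other libraries, and markers, were named after their values were seen. Of the lists, 1 transferase symbol (Gstp3) was not found and Adgre1 was read as Emr1. Alternatives were other pseudocounts (0.5 and 0.1), other filters, median-of-ratios scaling, array quality weights, a replicate block, the libraries of a comparison alone and leaving out each library.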

Additional observations from a re-analysis of the deposited data

Results flagged for a closer look

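In the fit without S302A DEN replicate 3, 2 of the 10 transferases were flagged for a DEN effect that may differ between the genotypes. Gsta4 was flagged by the test of the difference, which 0.631% of all tested genes passed. Gstp1 was flagged only by the direction of every library. The share of all tested genes with such a pattern was not counted, so how common it is remains unknown. For Gsta4 the test of the difference itself passed, with a difference of -1.05 between the DEN effect in S302A livers and that in WT livers (log2, limma, adjusted p = 0.04965). That call was lost under median-of-ratios scaling (adjusted p = 0.12), with no filter on low values (adjusted p = 0.052), with a replicate block (adjusted p = 0.074) and without any 1 of the 11 libraries (adjusted p from 0.052 to 0.24). With all 12 libraries the difference was 0.46 ± 1.24 (adjusted p = 0.98). Without replicate 3, the DEN effect was -0.96 in S302A livers and 0.09 in WT livers. For Gstp1 the 2 S302A DEN libraries lay above all S302A untreated libraries while all WT DEN libraries lay below all WT untreated libraries, a difference of 1.444 (log2) between the effects. Its test did not pass after adjustment over all genes (unadjusted p = 0.01283, adjusted p = 0.2006). With S302A DEN replicate 3 included, at 2489.6 TPM, the S302A DEN values of Gstp1 overlapped those of untreated S302A livers.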

How the results depend on the processing

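With all 12 libraries the count of transferases called was 0 in all 7 comparisons, and array quality weights, which gave S302A DEN replicate 3 a weight of 0.0498, changed it most. They called 2 (Gsta2, Gsta4) for DEN in S302A, 2 (Gsta3, Gstt1) for DEN in WT, 5 for S302A after DEN, 1 (Gstp1) for the difference between DEN effects, 4 for DEN averaged and 2 for S302A averaged. Leaving out 1 library gave 0 to 2, 0 to 0, 0 to 3, 0 to 1, 0 to 2 and 0 to 1 in the same order, and 0 to 0 for S302A in untreated liver, where every setting gave 0. Leaving out S302A DEN replicate 3 gave the highest values, and replicate 2 gave 1 (Gsta3) for DEN averaged.

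The sign of 11 differences was opposite to that with all 12 libraries where a call was made. With array quality weights Gsta4 was -0.80 for DEN in S302A, -1.15 for S302A after DEN and -0.68 for S302A averaged, Gsta2 was -1.50 for S302A after DEN and Gstm4 was -0.68 for DEN averaged. Leaving out 1 library, the lowest value came without S302A DEN replicate 3 and the highest without S302A DEN replicate 2. For Gsta4 they were -0.96 and 1.39 for DEN in S302A, -1.28 and 1.07 for S302A after DEN, -1.05 and 1.30 for the difference between DEN effects, -0.43 and 0.74 for DEN averaged and -0.75 and 0.42 for S302A averaged. For Gsta2 they were -2.02 and 1.42 for S302A after DEN. The cause was not tested.

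In the fit without S302A DEN replicate 3, leaving out a further library gave 0 to 2 called transferases for DEN in S302A (2 as reported), 0 to 2 for DEN in WT (0), 1 to 4 for S302A after DEN (3), 0 to 0 for the difference between DEN effects (1), 0 to 3 for DEN averaged (2) and 0 to 1 for S302A averaged (1). Median-of-ratios scaling and no filter each gave 0 for the difference between DEN effects, median-of-ratios scaling gave 0 for S302A averaged, and a filter at 5 TPM gave 1 for DEN in WT and 2 for S302A averaged. Array quality weights gave 3 for DEN in WT, 4 for DEN averaged and 2 for S302A averaged. Of the recomputed differences of single transferases in that fit 1190 stayed on their side, 40 lost and 21 gained a call, and 49 uncalled ones changed sign.

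Counts of all genes called moved widely: with 12 libraries from 75 to between 16 and 1609 for DEN in S302A, from 16 to between 1 and 2057 for DEN in WT and from 46 to between 4 and 1996 for S302A after DEN. With 11 libraries they moved from 289 to between 43 and 845, from 258 to between 21 and 1913, from 700 to between 62 and 1230, and for the difference between DEN effects from 75 to between 20 and 198. Scaling moved the share of lower calls with 11 libraries from 11.2% to 42.9% for DEN in WT, from 73.3% to 61.7% for the difference between DEN effects, from 25.3% to 49.5% for DEN averaged and from 84.2% to 60% for S302A averaged. With 12 libraries it moved from 32% to 53% for DEN in S302A, from 12.5% to 42.1% for DEN in WT, from 40% to 66.7% for the difference between DEN effects and from 21.6% to 54.5% for DEN averaged. With 11 libraries the median of all genes moved by 0.215 at most (S302A after DEN).

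Replicate numbers are shared between groups. Same-numbered libraries deviated together with correlations of -0.187 to 0.282, over 0.1 in 5 of 18 pairs, and 2 of 12 libraries correlated best with their own number in every other group. In 19 of 36 checks of a library against another group, its own number among the 3 correlated best. With a replicate block and 11 libraries 2 transferases were called for DEN in S302A, 3 for S302A after DEN and 1 (Gsta2, not Gsta4) for the difference between DEN effects, and with 12 libraries 0 in each. The depth behind these TPM values is unknown.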
